A study of Mus musculus with 4 samples.

Results

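Immediate early genes are switched on within minutes of a stimulus, because their promoters are held ready and need no new protein to be transcribed. The 10 followed here were Fos, Fosb, Jun, Junb, Egr1, Atf3, Ier2, Nr4a1, Klf2 and Klf4, each found as a single row of that name among the 27998 genes in the files (10 of 27998). The nuclei came from the right ventricle (RV) of wild-type C57/BL6J mice at postnatal day 21. The mice had undergone surgery at postnatal day 7, either a fistula between the abdominal aorta and the vena cava, which loads the RV with volume (RVVO), or a sham operation. Tissue was flash frozen before the nuclei were isolated, and there were 2 sham and 2 RVVO libraries. The methods give injections of cyclosporine A or saline from the day after surgery. Which of these the mice of the 4 libraries received, and whether a library was made from 1 mouse or a pool, was not stated in the labels or the methods used here.

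Fos, Fosb, Jun, Junb and Atf3 encode basic leucine zipper proteins that pair to form AP-1 and related factors, Egr1 encodes a zinc finger factor downstream of growth factor and stretch signals, and Nr4a1 an orphan nuclear receptor. Ier2 encodes a short-lived nuclear protein, and Klf2 and Klf4 encode zinc finger factors that endothelial cells (ECs) express under laminar flow. These genes are also known to respond to the removal and handling of a tissue, so their level in each library was followed across lineages: cardiomyocytes (CMs), ECs, fibroblasts, macrophages and pericytes.

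The promoters of Fos and Junb are shown because these genes were high together in a single library, and those of Klf2 and Klf4 because they were high together in a single lineage. Promoters of 300 bases, from 250 bases before the start to 50 after it, were taken from RefSeq for the GRCm38.p6 build, and 8 of the 10 genes had an entry (not Egr1 and Ier2). Each stretch below lies upstream of the annotated start of its gene, 5′ to 3′ on the strand of the gene. The Fos stretch is chr12:85473746-85473843 on the plus strand, that of Junb chr8:84978835-84978869 on the minus strand, that of Klf2 chr8:72318812-72318886 on the plus strand and that of Klf4 chr4:55532646-55532722 on the minus strand. Capitals mark TGACG, the core of the cAMP response element (CRE), and the site of the EGR family, GCG and any base followed by GGGCG, or their reverse complements.
Fos: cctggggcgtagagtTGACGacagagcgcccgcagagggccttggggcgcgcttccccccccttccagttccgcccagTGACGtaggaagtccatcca
Junb: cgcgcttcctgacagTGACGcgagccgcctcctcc
Klf2: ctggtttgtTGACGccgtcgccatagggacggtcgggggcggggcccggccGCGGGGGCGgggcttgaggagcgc
Klf4: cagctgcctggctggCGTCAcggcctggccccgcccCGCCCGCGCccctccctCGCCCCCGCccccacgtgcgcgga

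TGACG was in the promoters of 7 of the 8 genes (not Jun), compared with 20.8% of all 32851 promoters of the same length, both strands searched. The EGR site was in those of Fosb, Nr4a1, Klf2 and Klf4 (4 of 8), compared with 5.55% of all promoters. In Fos the TGACG copies began at -129 and -66 from the start, and in Klf4 the 2 EGR sites began at -211 and -194. The full CRE (TGACG followed by TCA, which contains the shorter core), the AP-1 site TGACTCA and the CArG box bound by serum response factor were in none of the 8, compared with 1.79%, 5.20% and 1.63% of all promoters. These matches describe the letters in this window only.

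The libraries held 51010039 to 64739206 unique molecular identifiers (UMIs) in 53090 barcodes, of which 43210 were kept as nuclei. Kept nuclei numbered 11439 and 12815 in sham 1 and sham 2, and 7681 and 11275 in RVVO 1 and RVVO 2, and libraries shared at most 70 barcodes pairwise. Of the kept nuclei, 29.1%, 21.0%, 19.1% and 15.2% in the same order lay in clusters left unnamed. These nuclei entered no lineage sum, and their median depth was 1164, 870, 7629 and 4526 UMIs. Nuclei were named from clusters formed without these 10 genes, and 10 of 11 CM markers (not Tnni3), 10 of 10 EC, 10 of 10 fibroblast, 11 of 11 macrophage and 8 of 8 pericyte markers were highest in the lineage named for them. The same markers had been used to name the clusters, so these counts are no independent check of the names. CMs were pooled over clusters whose make-up differed between libraries. The largest CM cluster (median 3834 UMIs) held 1137, 1472, 184 and 2828 nuclei in sham 1, sham 2, RVVO 1 and RVVO 2. The next largest (median 7972 UMIs) held 140, 799, 2088 and 1040 nuclei in the same order. Free RNA was present in all lineages: Myh6, a contractile gene of CMs, was at 9523, 6093, 7898 and 7047 counts per 1000000 UMIs (CPM) in ECs of sham 1, sham 2, RVVO 1 and RVVO 2, compared with 12189, 9959, 12293 and 10118 CPM in CMs. Xist was at 1475 and 1486 CPM in the sham libraries and at 0.823 and 0.623 CPM in the RVVO libraries, and the Y-linked Uty at 0.101, 0.0259, 322 and 317 CPM in the same order, so sex and surgery cannot be told apart. RVVO 2 stood apart for several of the 10 genes and differed in its lowest barcode too, which held 1561 UMIs compared with 535 to 818 in the other libraries, and values are therefore also given without it.

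Fos, the inducible partner of the Jun proteins, was highest in macrophages and lowest in CMs of the 5 lineages tested, among which all orders are given. Values are given throughout in the order sham 1, sham 2, RVVO 1 and RVVO 2, as CPM of the UMIs summed over the nuclei of a lineage. In macrophages Fos was at 7.87, 9.92, 9.74 and 20.3 CPM. In fibroblasts it was at 3.63, 3.04, 2.28 and 9.59 CPM. RVVO 2 was the highest library in both lineages, while the other 3 lay close together. In ECs Fos was at 1.58, 2.67, 0.898 and 5.73 CPM (14, 21, 6 and 34 UMIs), in CMs at 0.716, 0.961, 0.572 and 2.72 CPM (10, 16, 13 and 63 UMIs), and in pericytes at 0.878, 1.21, 1.62 and 12.4 CPM (1, 2, 2 and 10 UMIs). RVVO 2 was again the highest in each, and RVVO 1 was the lowest in ECs, CMs and fibroblasts.

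The RVVO mean of Fos was above the sham mean, with a spread between the RVVO libraries as large as the difference. In fibroblasts Fos averaged 3.34 ± 0.415 CPM in sham and 5.94 ± 5.17 CPM in RVVO (SD, n = 2). The log2 RVVO/sham change of Fos was 0.85 (SE 0.66), 0.89 (SE 0.74) and 0.53 (SE 0.75) in fibroblasts, CMs and ECs, with Benjamini-Hochberg adjusted p of 0.999, 0.928 and 0.892 by the quasi-likelihood test of edgeR. None of these passed 0.05. Without RVVO 2 the sign turned in each, to -0.51, -0.58 and -1.28. Macrophages and pericytes had too few Fos UMIs to pass the filter on low counts.

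Fosb, a relative of Fos, was near the detection limit. It had 10, 11, 5 and 4 UMIs in ECs, the lineage with the highest Fosb level in 3 of the 4 libraries, and at most 10 UMIs per library in CMs. It passed the filter in none of the 5 lineages, so no difference in Fosb was testable.

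Junb, an AP-1 subunit that follows Fos, was highest in macrophages in 3 libraries and in fibroblasts in RVVO 2. In fibroblasts Junb was at 12.9, 14.0, 9.14 and 45.5 CPM, and in macrophages at 21.0, 28.0, 20.7 and 35.8 CPM. In ECs Junb was at 13.9, 17.8, 11.4 and 33.5 CPM. In CMs it was at 4.87, 4.02, 3.96 and 9.73 CPM. RVVO 2 was the highest in each of these lineages, by a factor of 4.98 over RVVO 1 in fibroblasts and of 1.73 in macrophages. In pericytes Junb had 0, 10, 8 and 17 UMIs, and the 0 in sham 1 allows up to 2.64 CPM. The log2 RVVO/sham change of Junb was 0.99 (SE 0.62) in fibroblasts and 0.56 (SE 0.43) in CMs, with edgeR adjusted p of 0.999 and 0.924. Both turned without RVVO 2, to -0.56 and -0.19.

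Jun, the AP-1 subunit with basal expression in most cells, did not follow Fos and Junb. It was at 61.9, 89.6, 61.1 and 68.9 CPM in ECs, at 41.1, 51.5, 39.3 and 63.1 CPM in fibroblasts and at 35.4, 52.3, 34.1 and 37.8 CPM in macrophages. Sham 2 was the highest library for Jun in ECs and macrophages, and RVVO 2 in fibroblasts. In CMs Jun was at 23.8, 34.4, 37.7 and 37.2 CPM, and in pericytes at 26.4, 27.3, 38.9 and 42.0 CPM. Both RVVO libraries were above both sham libraries in CMs and pericytes, narrowly so in CMs. The log2 change was 0.31 (SE 0.19, edgeR adjusted p = 0.894) in CMs and 0.57 (SE 0.25, edgeR adjusted p = 0.999) in pericytes.

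Atf3, a stress-induced repressor of the same protein class, passed the test of RVVO against sham in none of the lineages. Whether its change with surgery differed between lineages did not pass either (lineage by surgery term, edgeR adjusted p = 0.387). In ECs Atf3 was at 11.9, 12.2, 3.14 and 8.93 CPM (106, 96, 21 and 53 UMIs), so both RVVO libraries were below both sham libraries. The log2 change in ECs was -1.11 (SE 0.42, edgeR adjusted p = 0.424). In pericytes Atf3 was also lower in both RVVO libraries, at 9.66, 8.48, 3.24 and 6.18 CPM (11, 14, 4 and 5 UMIs), with a log2 change of -1.01 (SE 0.54, edgeR adjusted p = 0.999). In macrophages it was higher in both, at 9.18, 9.92, 12.2 and 17.6 CPM (7, 11, 10 and 26 UMIs), with a log2 change of 0.64 (SE 0.43, edgeR adjusted p = 0.855) that turned to -0.22 when each nucleus was named on its own. The groups overlapped in CMs, where Atf3 was at 5.30, 11.3, 2.86 and 6.70 CPM, and in fibroblasts, where it was at 4.44, 5.62, 4.57 and 6.91 CPM. Without RVVO 2 the value in ECs was -2.0 (edgeR adjusted p = 0.0150), and without RVVO 1 it was -0.55. With 1 RVVO library left, the spread came from the sham libraries alone, and the RVVO library was assumed to vary as they did.

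Egr1 was highest in fibroblasts among the 5 lineages in every library, while smooth muscle cells, which were not tested, reached 15.4 CPM in sham 1 (8 UMIs). It was at 14.1, 22.5, 14.2 and 64.7 CPM there (35, 96, 56 and 290 UMIs), and at 4.17, 6.48, 8.08 and 43.8 CPM in ECs (37, 51, 54 and 260 UMIs). RVVO 2 exceeded the next library by more than the range of the other 3 in both lineages. In CMs Egr1 was at 0.716, 1.62, 0.792 and 3.67 CPM, in macrophages at 1.31, 8.11, 8.52 and 12.2 CPM and in pericytes at 5.27, 3.64, 7.30 and 18.5 CPM. RVVO 2 was the highest library in each of these as well, where Egr1 in RVVO 2 was near the level of free fibroblast RNA, as given later.

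In ECs both RVVO libraries were above both sham libraries for Egr1, with 5.33 ± 1.63 CPM in sham and 25.9 ± 25.3 CPM in RVVO (SD, n = 2). The log2 change was 2.18 (SE 0.72), with an edgeR adjusted p of 0.349. It was 2.93 without RVVO 1 (edgeR adjusted p = 0.000226) and 0.55 without RVVO 2 (edgeR adjusted p = 0.655), again with the spread taken from the sham libraries alone. In fibroblasts and CMs the change was 1.05 (SE 0.60) and 0.84 (SE 0.76), with edgeR adjusted p of 0.999 and 0.934. Without RVVO 2 it was -0.39 and -0.60.

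Nr4a1 was at a like level in most lineages. It was at 18.6, 12.1, 4.79 and 14.9 CPM in CMs, at 17.5, 14.0, 8.08 and 19.7 CPM in ECs and at 16.9, 16.6, 7.11 and 23.2 CPM in fibroblasts. RVVO 1 was the lowest library in all 3, and RVVO 2 the highest in ECs and fibroblasts. In macrophages Nr4a1 was at 28.8, 10.8, 8.52 and 10.8 CPM (22, 12, 7 and 16 UMIs), and in pericytes at 15.8, 8.48, 5.68 and 17.3 CPM. RVVO 1 was the lowest there too. The log2 RVVO/sham change was -0.96 (SE 0.56) in macrophages and -0.71 (SE 0.50) in CMs, with edgeR adjusted p of 0.838 and 0.922.

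Ier2 was highest in ECs, at 37.8, 34.8, 32.5 and 50.4 CPM, and lowest in CMs, at 4.37, 3.12, 2.77 and 5.45 CPM. Fibroblasts had 16.9, 12.9, 11.4 and 20.5 CPM of Ier2, macrophages 11.8, 16.2, 14.6 and 23.6 CPM, and pericytes 15.8, 12.7, 8.11 and 16.1 CPM. RVVO 2 was the highest in each, by a small margin over sham 1 in pericytes. The log2 change of Ier2 lay between -0.31 and 0.45 in the 5 lineages, and its SE was 0.21 in ECs and 0.43 in pericytes.

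Klf2 and Klf4 were set by lineage more than by library. In ECs Klf2 was at 291, 268, 178 and 233 CPM, and Klf4 at 219, 282, 184 and 219 CPM. In macrophages Klf2 was at 111, 79.3, 80.3 and 109 CPM and Klf4 at 53.8, 53.2, 53.5 and 55.4 CPM. The 4 libraries were almost equal for Klf4 in macrophages, while RVVO 1 was the lowest for both genes in ECs. In fibroblasts Klf2 was at 72.6, 63.9, 46.5 and 89.2 CPM and Klf4 at 70.2, 98.8, 64.0 and 118 CPM, with RVVO 2 the highest. CMs had 24.1, 14.5, 13.3 and 22.8 CPM of Klf2 and 17.9, 11, 10.5 and 16.7 CPM of Klf4, and pericytes 65.9, 47.9, 43.8 and 39.5 CPM of Klf2. Pericytes had 40.4, 35.8, 35.7 and 32.1 CPM of Klf4.

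Both RVVO libraries were below both sham libraries for Klf2 in ECs and pericytes. For Klf4 in ECs the groups met in CPM at sham 1 and RVVO 2, and stood apart after normalisation by the trimmed mean of M-values (TMM). In ECs Klf2 averaged 280 ± 15.7 CPM in sham and 206 ± 39.0 CPM in RVVO (SD, n = 2). The log2 changes in ECs were -0.53 (SE 0.16) for Klf2 and -0.40 (SE 0.16) for Klf4, with edgeR adjusted p of 0.285 and 0.441. The make-up of the ECs differed between the groups. Endocardial nuclei, whose Klf2 was below that of capillary nuclei in all libraries, were 8.26%, 7.47%, 17.4% and 25.2% of ECs, and capillary nuclei 72.8%, 64.6%, 55.4% and 55.5%. Within capillary ECs alone the changes were smaller, at -0.38 (SE 0.15) for Klf2 and -0.23 (SE 0.15) for Klf4, with edgeR adjusted p of 0.643 and 0.968, and that of Egr1 was 2.42 (SE 0.68, edgeR adjusted p = 0.327). This comparison was added after the data were seen.

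**Figure D1:**
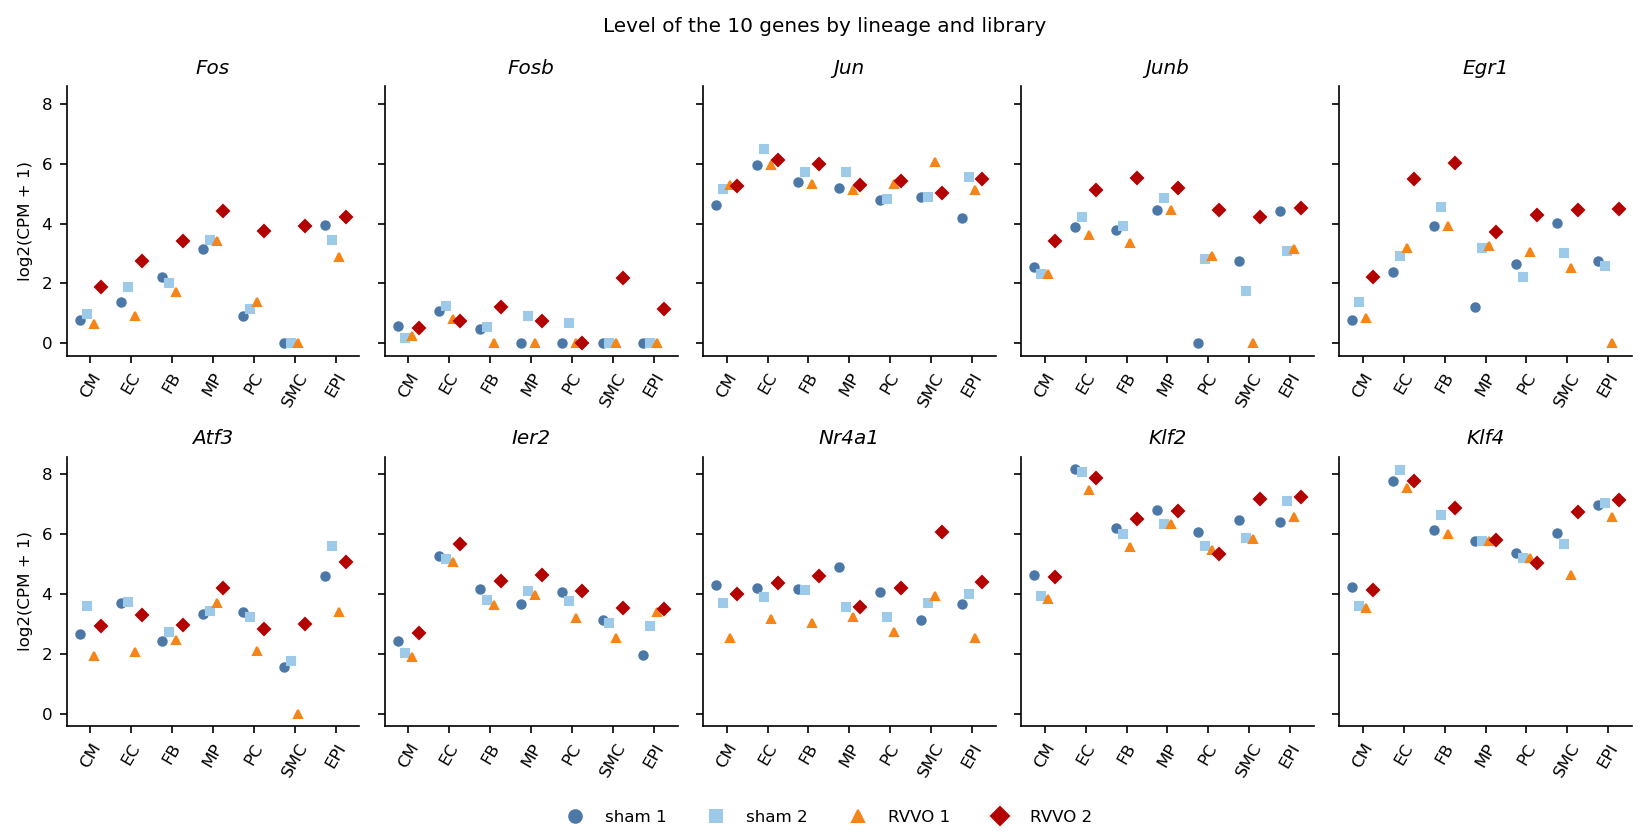
Level of each of the 10 genes (log2 of CPM + 1, vertical axis) by lineage (horizontal axis: CM, EC, fibroblasts FB, macrophages MP, pericytes PC, and the smaller smooth muscle SMC and epicardial EPI lineages), with a point for each of the 4 libraries. RVVO 2 lies above the other 3 libraries for Fos, Junb, Egr1 and Ier2 in each lineage from CM to PC, while Klf2 and Klf4 are highest in ECs in all libraries.

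The question of the surgery was put to each gene in each lineage with edgeR, fitted on all genes that passed the filter. None of the 10 genes was called at an adjusted p of 0.05 in any lineage: 0 of 9 tested in CMs (0.0486% of all 14412 genes tested there were called), 0 of 9 in ECs (0.207% of all), 0 of 9 in fibroblasts (0.102% of all), 0 of 7 in macrophages (0.0919% of all) and 0 of 6 in pericytes (0.0708% of all). At an unadjusted p of 0.05 the numbers were 0, 4, 0, 0 and 1, compared with 5.76%, 10.4%, 4.13%, 6.28% and 4.52% of all genes tested. They were Klf2, Egr1, Atf3 and Klf4 in ECs and Jun in pericytes. DESeq2 called 0 in each lineage. The median log2 RVVO/sham change over the tested genes was 0.07 in CMs, -0.29 in ECs, 0.11 in fibroblasts, 0.00 in macrophages and -0.23 in pericytes, while the median of all genes lay between -0.01 and 0.01.

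Without overlap between the groups stood 1 of 9 genes in CMs (35.6% of all genes tested), 4 of 9 in ECs (39.9%), 0 of 9 in fibroblasts (31.8%), 2 of 7 in macrophages (36.5%) and 3 of 6 in pericytes (32.7%). These shares lie near or below those of all genes in CMs, ECs, fibroblasts and macrophages. Those higher in RVVO were Jun in CMs and pericytes, Egr1 in ECs and Atf3 in macrophages. Those lower were Atf3, Klf2 and Klf4 in ECs, Atf3 and Klf2 in pericytes, and Nr4a1 in macrophages, narrowly (10.8 CPM in both sham 2 and RVVO 2). The filter left out Fos and Egr1 in macrophages and Fos, Junb and Egr1 in pericytes, besides Fosb. In CPM both RVVO libraries were above both sham libraries for these, except for Fos in macrophages and Fosb, where the groups overlapped. Those apart had at most 18 UMIs per library.

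**Figure D2:**
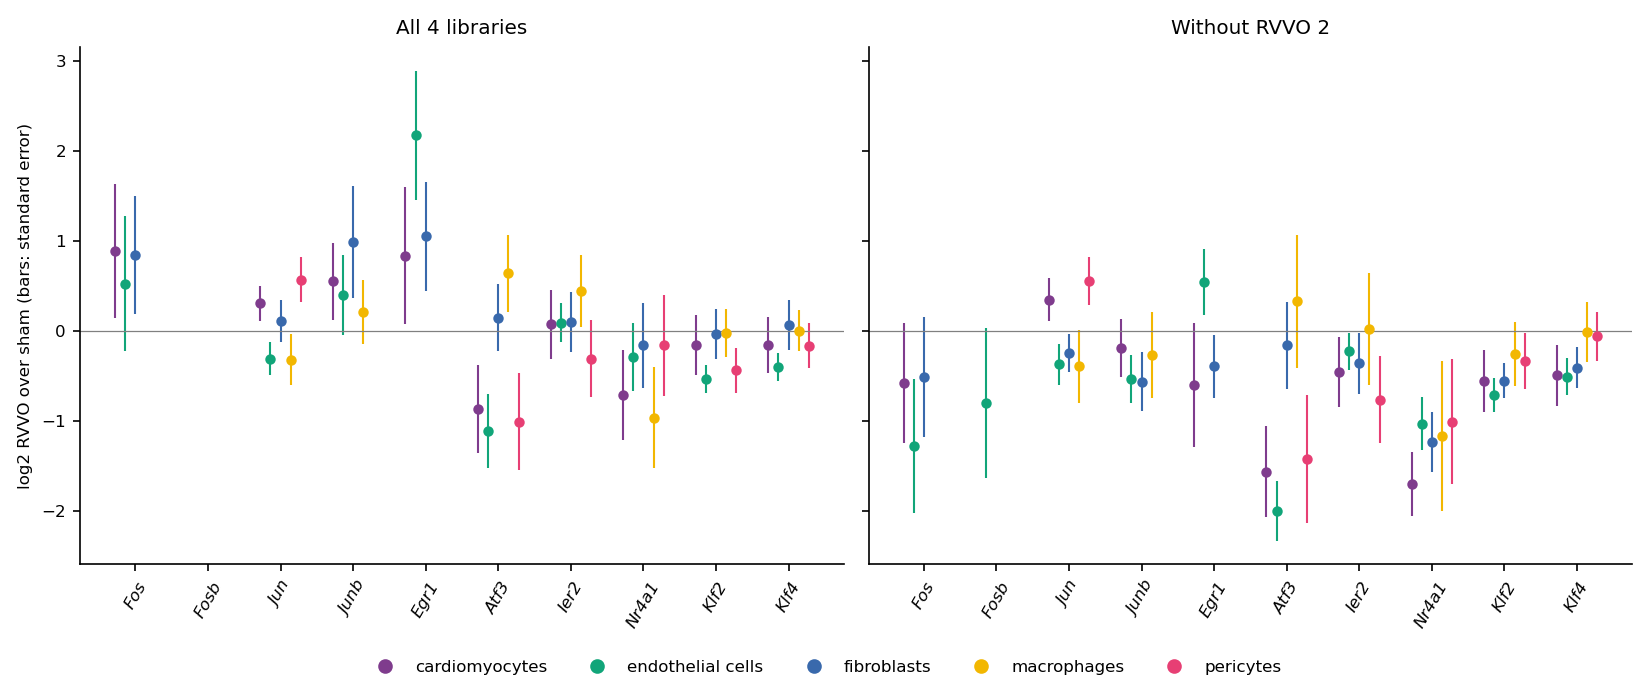
Log2 RVVO/sham change (vertical axis, bars are the standard error) of the 10 genes (horizontal axis) in 5 lineages, with all 4 libraries and without RVVO 2. Fos, Junb and Egr1 lie above 0 in CMs, ECs and fibroblasts with all libraries and, except for Egr1 in ECs, below 0 without RVVO 2.

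Whether the change with surgery differed between lineages was tested with a lineage by surgery term in a fit of all 20 sums. It was called for 0 of 9 genes (0.426% of all genes tested). At an unadjusted p of 0.05 it held for 3 (8.86% of all genes tested), namely Jun (edgeR adjusted p = 0.334), Atf3 (edgeR adjusted p = 0.387) and Egr1 (edgeR adjusted p = 0.444).

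The levels themselves differed between lineages for 9 of 9 genes tested, as they did for 92.1% of all genes. Each lineage was then compared with the mean of the other 4. CMs were lower for 6 of 9 genes (41.1% of all genes were lower) and higher for 1 (38.5% higher). The 6 were Egr1 (log2 -2.27, SE 0.24), Klf4 (-1.89, SE 0.13), Klf2 (-1.74, SE 0.11), Ier2 (-1.68, SE 0.11), Fos (-1.32, SE 0.23) and Junb (-0.93, SE 0.19), and the edgeR adjusted p was 8.08e-05 for Junb and lower for the other 5. Nr4a1 was higher in CMs, by 0.44 (SE 0.13, edgeR adjusted p = 0.00334), but this turned to -0.18 when levels were scaled on total UMIs alone.

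ECs were higher for 6 of 9 genes (27.4% of all genes were higher) and lower for 1 (32.2% lower). Klf4 was higher by 2.46 (SE 0.10, edgeR adjusted p = 1.44e-16), Klf2 by 2.23 (SE 0.09, edgeR adjusted p = 4.14e-17) and Ier2 by 1.79 (SE 0.09, edgeR adjusted p = 5.61e-15) on the log2 scale. Jun, Egr1 and Junb were higher by 0.82, 0.81 and 0.58, and Fos was lower, at -0.58 (edgeR adjusted p = 0.0364). The value for Egr1 fell as low as 0.31 when a library was left out. In CPM, Egr1 was higher in pericytes than in ECs in sham 1 (6 UMIs in pericytes). It was higher in macrophages than in ECs in sham 2 and RVVO 1 (9 and 7 UMIs in macrophages). Egr1 in ECs exceeded every fibroblast marker in RVVO 2 alone, as given later. Fibroblasts were higher for 3 (25.8% of all genes) and lower for 1 (28.5%). Egr1 led them, at 2.02 (SE 0.19, edgeR adjusted p = 1.96e-09), followed by Klf4 at 0.60 and Junb at 0.46, while Atf3 was lower, at -0.80 (edgeR adjusted p = 0.0116).

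Macrophages were higher for 3 genes (25.3% of all genes) and lower for 1 (28.1%). Fos was higher by 1.91 (SE 0.28, edgeR adjusted p = 2.22e-06), Junb by 0.97 and Klf2 by 0.36 on the log2 scale, and Jun was lower, at -0.39. Pericytes were higher for 0 (19.2% of all genes) and lower for 4 (20.9%), namely Junb (-1.08), Klf4 (-0.86), Klf2 (-0.64) and Jun (-0.59). On total UMIs alone, Fos in ECs, Atf3 in fibroblasts and Jun in macrophages no longer passed.

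The order of the lineages was steady for some genes and not for others. Klf2 had the same order in all 4 libraries: ECs, macrophages, fibroblasts, pericytes, CMs. Klf4 also kept its order, with fibroblasts above macrophages. Klf2 in fibroblasts and pericytes were the nearest neighbours, with 68.0 ± 17.8 and 49.3 ± 11.6 CPM (SD, n = 4), a difference close to the spread between libraries. Fos kept macrophages first and CMs last. Nr4a1 and Jun kept no full order, and the highest lineage exceeded the lowest by a factor of at most 2.15 for Nr4a1 and 3.28 for Jun.

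Some of the 10 genes shared their highest library across the lineages. In CPM both RVVO libraries were also above both sham libraries for Fos, Junb and Egr1 in pericytes and for Egr1 in ECs and macrophages. Among 11807 genes with at least 10 UMIs in each of the 5 lineages, 9 of the 10 could be counted. Fos, Junb, Egr1 and Ier2 (4 of 9) were highest in RVVO 2 in all 5 lineages, compared with 2.52% of all genes. In sham 1, sham 2 and RVVO 1 the count was 0 of 9, compared with 2.37%, 1.26% and 1.37% of all genes. Fos in pericytes (1, 2, 2 and 10 UMIs) met the limit of 10 UMIs only through RVVO 2. Egr1 in CMs, macrophages and pericytes of RVVO 2 was near the level of free RNA, as given later. Fos, Junb and Egr1 did not pass the main filter in all 5 lineages. Among the 8705 genes that did, and after TMM scaling, none of the 10 was highest in RVVO 2 in all 5 lineages, compared with 1.24% of all genes. Ier2 was then highest in RVVO 2 in 4 of the 5 lineages. Which library was compared was chosen after its values were seen.

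The difference between RVVO 2 and RVVO 1 was smaller in macrophages than in CMs, ECs and fibroblasts for Fos, Egr1 and Junb, which was not tested. In CPM the factor in macrophages was 2.08 for Fos (30 and 8 UMIs) and 1.43 for Egr1 (18 and 7 UMIs). The log2 difference was 2.02, 2.35 and 2.10 for Egr1 in CMs (where Egr1 was at the level of free RNA, as given later), ECs and fibroblasts, 2.01, 2.31 and 1.81 for Fos, and 1.22, 1.49 and 2.21 for Junb. Junb differed by 0.70 in macrophages. Nr4a1 differed by 1.55, 1.21, 1.60, 0.26 and 1.31 in CMs, ECs, fibroblasts, macrophages and pericytes. The median of all genes lay between 0.00 and 0.02. The make-up of the CMs differed between these libraries, as given above, and its part in the CM values was not tested.

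Summed over Fos, Egr1 and Junb, 3 genes grouped after their values were seen, the level in RVVO 2 was 3.03 times that in RVVO 1 in CMs, 4.08 times in ECs, 4.67 times in fibroblasts, 1.75 times in macrophages and 3.37 times in pericytes. These values follow from the choice of the genes and are a description. The sums include Egr1, which was near the level of free RNA in CMs, macrophages and pericytes of RVVO 2, as given later. In pericytes of RVVO 1 and RVVO 2, Fos rested on 2 and 10 UMIs and Junb on 8 and 17 UMIs. The sham libraries differed by factors of 1.05, 1.37, 1.29, 1.52 and 1.77. A library is a single preparation, so mouse, dissection and preparation cannot be told apart, and their part in this pattern was not tested.

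**Figure D3:**
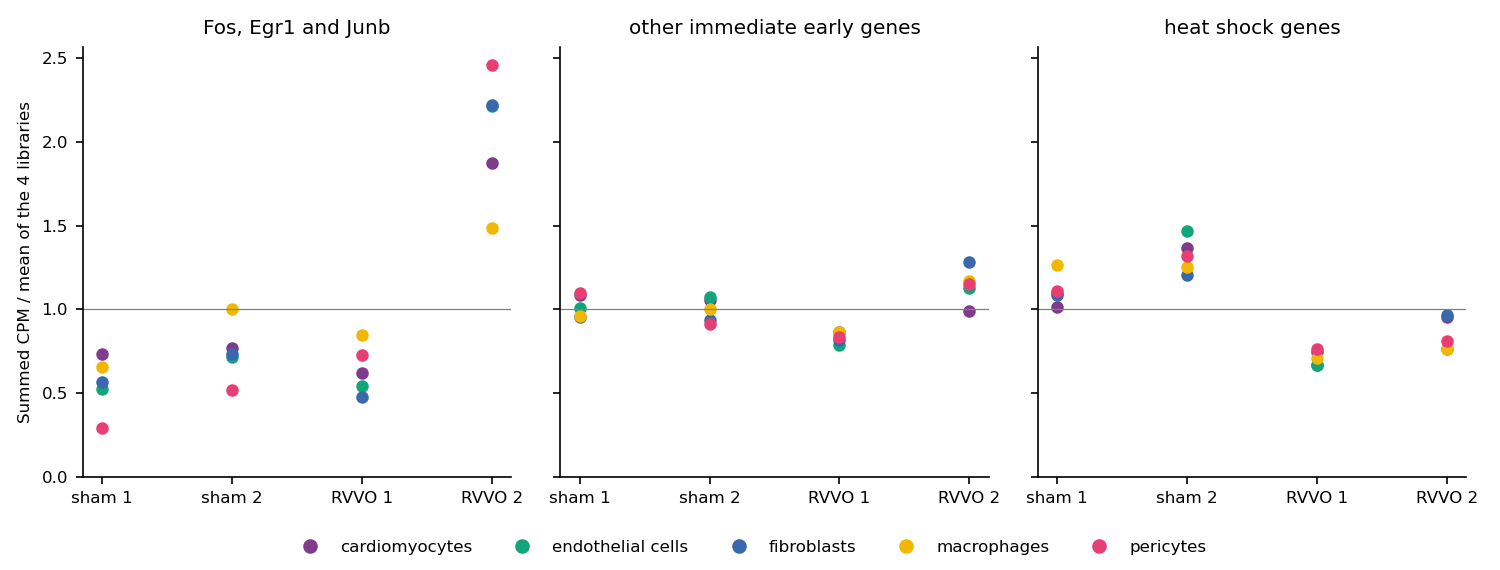
Summed CPM of a group of genes in each library divided by the mean of the 4 libraries (vertical axis), with a point for each of the 5 lineages, for Fos, Egr1 and Junb, for 20 other immediate early genes and for 10 heat shock genes. Fos, Egr1 and Junb together reach 1.49 to 2.46 times the mean in RVVO 2 in all lineages, while the heat shock genes are highest in the sham libraries. The 20 other immediate early genes are lowest in RVVO 1 in all lineages and highest in RVVO 2 in all but CMs. Egr1 was near the level of free RNA in CMs, macrophages and pericytes of RVVO 2.

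At equal depth, each nucleus thinned to 1000 UMIs, ECs were the lineage in which most nuclei held a UMI of any of the 10 genes. The shares were 43.7% (95% CI 42.0 to 45.4, exact binomial), 47.4% (45.6 to 49.1), 38.2% (36.0 to 40.5) and 45.3% (43.2 to 47.5) of ECs. In fibroblasts they were 20.7%, 21.9%, 16.9% and 29.7%, in macrophages 28.3%, 25.1%, 20.3% and 28.7%, in pericytes 14.4%, 13.9%, 14.7% and 21.3%, and in CMs 10.4%, 10.6%, 8.58% and 12.7%. RVVO 2 was the highest library in all lineages but ECs, where it lay between the sham libraries. The intervals cover counting error only. Without thinning the shares were 68.7%, 67.0%, 70.4% and 73.5% of ECs and 39.4%, 37.7%, 45.2% and 43.9% of CMs, at median depths of 2244, 1967, 3082 and 2437 UMIs in ECs and of 4669, 4786, 7907 and 4498 UMIs in CMs.

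The difference in share between RVVO and sham, in percentage points, was 0.0996 in CMs, -3.78 in ECs, 2.0 in fibroblasts, -2.23 in macrophages and 3.87 in pericytes. The exact permutation test of 2 libraries against 2 gave two-sided p = 1 in CMs, fibroblasts and macrophages, p = 0.6667 in ECs and p = 0.33, the smallest it can give, in pericytes. No difference with surgery could therefore reach 0.05.

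Klf2 and Klf4 carried most of the share in ECs. With Klf2 or Klf4 alone it was 35.8%, 38.6%, 30.03% and 32.6% in ECs, so both RVVO libraries were below both sham libraries, and 4.90%, 3.78%, 3.49% and 4.75% in CMs. With the other 8 genes it was 13.6%, 15.4%, 11.6% and 19.3% in ECs and 9.22%, 10.2%, 6.76% and 17.3% in fibroblasts. In CMs the 8 genes gave 5.68%, 7.34%, 5.24% and 8.38%, in macrophages 13%, 13.9%, 6.91% and 14.4%, and in pericytes 4.38%, 6.26%, 8.14% and 13.3%. RVVO 2 was then the highest library in all 5 lineages, with the widest lead over the next library in fibroblasts.

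**Figure D4:**
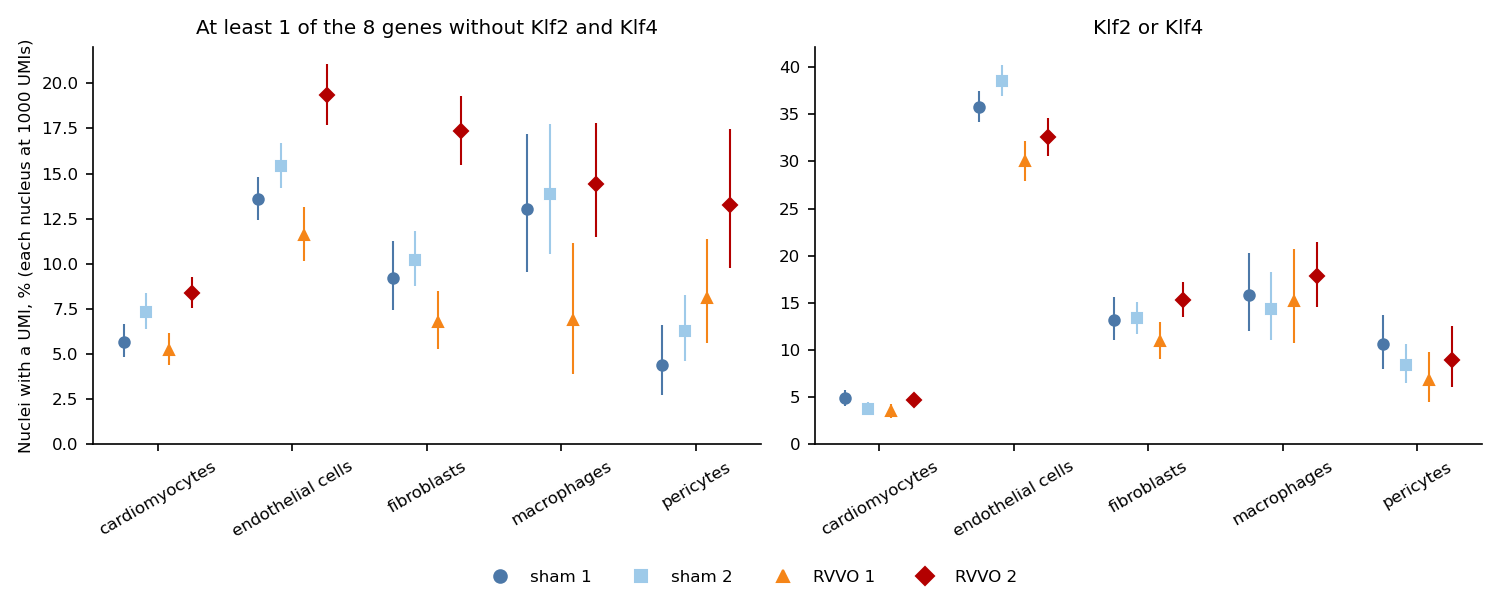
Share of nuclei with a UMI (vertical axis, percent, each nucleus thinned to 1000 UMIs) in 5 lineages (horizontal axis), with a point for each library and its 95% exact binomial interval. Left, any of the 8 genes other than Klf2 and Klf4, where RVVO 2 is the highest library in every lineage, narrowly so in macrophages. Right, Klf2 or Klf4, where ECs lie at 30.03% to 38.6% and CMs at 3.49% to 4.90%.

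At 1000 UMIs the share of nuclei with Egr1 was highest in RVVO 2 in CMs, ECs and fibroblasts, and that with Junb in all lineages but macrophages. With few UMIs per nucleus these shares largely restate the level. Egr1 was found in 0.268%, 0.515%, 0.836% and 3.59% of ECs and in 1.30%, 1.83%, 0.895% and 5.27% of fibroblasts at 1000 UMIs. Without thinning it was found in 8.64% of ECs and 10.7% of fibroblasts of RVVO 2. Junb was found in 1.19%, 1.45%, 0.298% and 3.79% of fibroblasts, and in 1.78%, 1.61%, 1.11% and 3.16% of ECs. In CMs it was found in 0.276%, 0.388%, 0.660% and 1.22%, and in pericytes in 0%, 0.816%, 1.31% and 3.09%. Fos was found in 0.211% of CMs of RVVO 2 (9 of 4271 nuclei). At 1000 UMIs RVVO 2 was not the highest for Egr1 in macrophages and pericytes, where few nuclei held it. The shares were 0%, 0.262%, 0.461% and 0.401% of macrophages and 0.208%, 0.272%, 1.05% and 0.926% of pericytes. Junb was found in 3.11%, 3.66%, 2.30% and 3.61% of macrophages, with sham 2 the highest. Most nuclei of every lineage thus had no UMI of these genes at this depth.

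Nuclei with UMIs of several of the 8 genes other than Klf2 and Klf4 were rare. At least 2 of the 8 were found in 0.976%, 0.693%, 0.398% and 2.50% of fibroblasts, in 0.892%, 1.12%, 0.446% and 1.93% of ECs, and in at most 0.351% of CMs. RVVO 2 was the highest in each, and also in macrophages, at 0.311%, 0.524%, 0.461% and 1.40%. In pericytes it was not, where the shares were 0.833%, 0.680%, 0.525% and 0.617% (4, 5, 2 and 2 nuclei). In RVVO 2 fibroblasts, 12 of 82 nuclei with Egr1 also had Junb (14.6%), compared with 3.19% of those without Egr1. In ECs of RVVO 2 the shares were 5.26% and 3.08%. Klf4 was found in 21.7%, 26.7%, 19.3% and 22.1% of ECs with Klf2 and in 16.9%, 21.9%, 15.1% and 18.1% of those without it.

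Free RNA could add UMIs of these genes to nuclei that do not make them, so Egr1, Fos, Klf2 and Jun were set beside the markers of a lineage in which each was high. In CMs Egr1 was at 5.07%, 7.22%, 5.57% and 5.68% of its level in fibroblasts, and the fibroblast markers were at a median of 6.85%, 6.78%, 6.86% and 7.51% of theirs. Egr1 in CMs was thus at the level of free fibroblast RNA in all libraries, and its higher value in RVVO 2 is not read as expression by CMs. In RVVO 2 Egr1 was at 12.2 CPM in macrophages and 18.5 CPM in pericytes, compared with 64.7 CPM in fibroblasts. The fibroblast markers were there at a median of 19.1% and 27.8% of their fibroblast level. Egr1 in macrophages and pericytes of RVVO 2 was thus near the level of free RNA and is not read as expression by them. In macrophages of sham 2 and RVVO 1 Egr1 was at 8.11 and 8.52 CPM (9 and 7 UMIs), compared with 22.5 and 14.2 CPM in fibroblasts. This was above every fibroblast marker in those macrophages, the highest of which reached 34.5% and 37.4% of its fibroblast level. In pericytes Egr1 was below the highest fibroblast marker in each library. In ECs Egr1 was at 29.5%, 28.8%, 56.9% and 67.7% of its level in fibroblasts, compared with at most 51.0%, 55.1%, 70.1% and 51.9% for any fibroblast marker. In ECs it exceeded every marker in RVVO 2 alone.

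Fos in CMs was at 9.11%, 9.68%, 5.87% and 13.4% of its level in macrophages, above the median of the macrophage markers (0.841%, 0.842%, 0.833% and 1.49%) but below the highest of them. In fibroblasts Fos was at 46.1%, 30.7%, 23.5% and 47.3%, above every macrophage marker in all libraries but RVVO 1. Klf2 in CMs was at 8.28%, 5.39%, 7.48% and 9.78% of its level in ECs and above every EC marker in each library, the highest of which reached 7.17%, 4.32%, 4.65% and 4.79%. Jun in CMs was at 38.4%, 38.4%, 61.8% and 53.9% of its EC level, also above every EC marker. The ratio of Egr1 to Fos UMIs in RVVO 2 differed between lineages too, with 290 and 43 UMIs in fibroblasts, 260 and 34 in ECs, 85 and 63 in CMs and 18 and 30 in macrophages.

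Within ECs, 4 subtypes could be named from markers, with 6881 capillary, 1386 endocardial, 645 arterial and 338 lymphatic nuclei. Klf2 was at 330, 295, 235 and 264 CPM in capillary, at 284, 305, 228 and 240 CPM in arterial, at 126, 161, 95.4 and 187 CPM in endocardial and at 43.6, 85.4, 66.7 and 125 CPM in lymphatic ECs. The capillary and arterial values did not overlap with the endocardial and lymphatic values. Egr1 was at 4.69, 7.34, 8.55 and 58.2 CPM in capillary (30, 37, 28 and 189 UMIs) and at 4.71, 8.68, 9.20 and 33.2 CPM in endocardial ECs (4, 7, 16 and 53 UMIs). In arterial ECs it was at 5.26, 5.05, 14.5 and 27.5 CPM, on only 3, 3, 3 and 7 UMIs. RVVO 2 was the highest in each, with too few UMIs in arterial ECs to set it apart from RVVO 1.

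A difference between subtypes was called for 5 of 7 genes tested (56.1% of all genes tested), namely Klf2, Klf4, Ier2, Jun and Nr4a1, and not for Junb (edgeR adjusted p = 0.0686) or Egr1 (edgeR adjusted p = 0.110). Compared with the mean of the other subtypes, Klf2 was higher in capillary (log2 1.02, SE 0.12) and arterial (0.92, SE 0.14) and lower in lymphatic ECs (-1.59, SE 0.19), with edgeR adjusted p of 1.12e-07, 2.06e-05 and 1.40e-07. Klf4 was lower in endocardial (-1.02, SE 0.12) and lymphatic ECs (-0.55, SE 0.14), with edgeR adjusted p of 9.99e-08 and 0.00302.

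**Figure D5:**
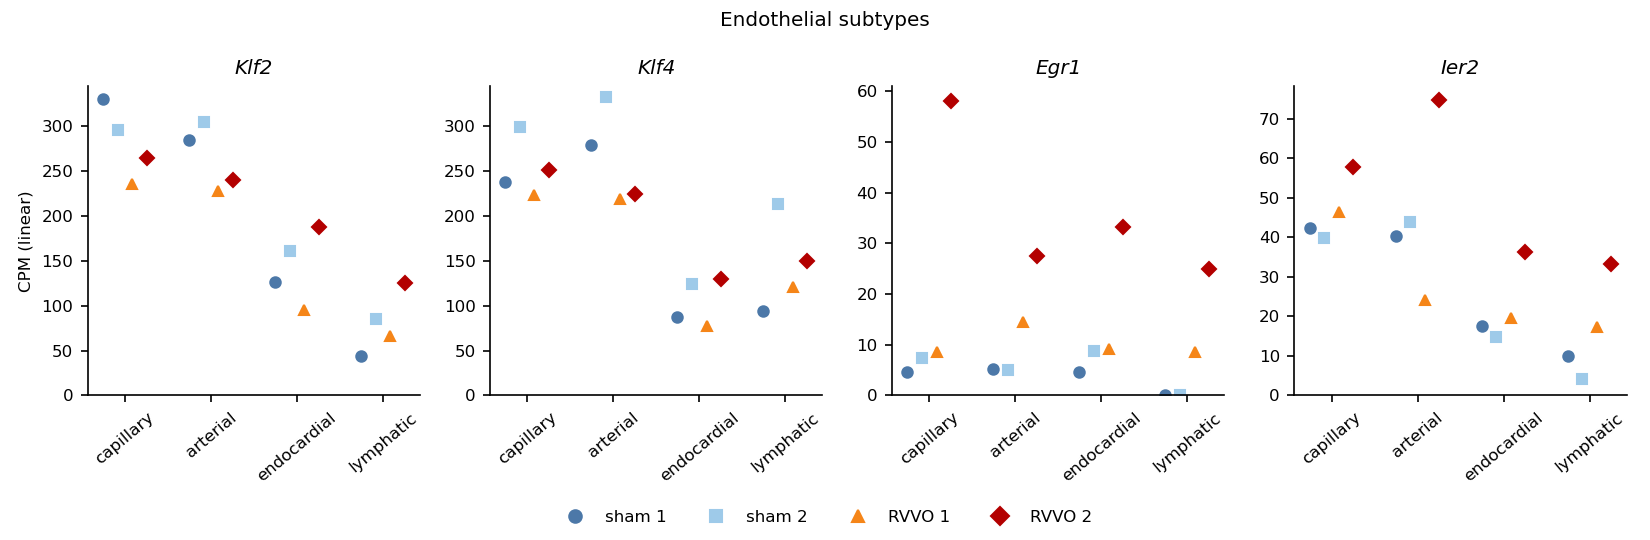
CPM (vertical axis, linear) of Klf2, Klf4, Egr1 and Ier2 in 4 EC subtypes (horizontal axis), with a point for each library. Klf2 lies at 228 to 330 CPM in capillary and arterial ECs and at 43.6 to 187 CPM in endocardial and lymphatic ECs. Egr1 is highest in RVVO 2 in each subtype, on at most 7 UMIs per library in arterial and lymphatic ECs.

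The 20 other immediate early genes were, as a sum, lowest in RVVO 1 in all 5 lineages. Their sum was highest in RVVO 2 in all lineages but CMs, where sham 1 was highest. The sum in RVVO 2 was 1.14, 1.43, 1.57, 1.35 and 1.39 times that in RVVO 1 in CMs, ECs, fibroblasts, macrophages and pericytes. Of these 20 genes, 0 of the 9 to 17 tested per lineage were called. Their median log2 RVVO/sham change was -0.06 in CMs, -0.22 in ECs, 0.28 in fibroblasts, 0.22 in macrophages and -0.07 in pericytes. Btg2 and Socs3 were the 2 of 16 that were highest in RVVO 2 in all 5 lineages, compared with 2.52% of all genes. Nr4a3, a relative of Nr4a1, was at 27.7, 22.4, 2.16 and 8.19 TMM-scaled CPM in CMs, a log2 change of -2.27 (SE 0.55, edgeR adjusted p = 0.749), and its change was -0.09 (SE 0.52) in ECs and -0.28 (SE 0.46) in fibroblasts. It was the 1 of these genes for which the lineage by surgery term was called (edgeR adjusted p = 0.00152), while no gene passed that term when each nucleus was named on its own. Fosl2, an AP-1 subunit, was at 29.0, 28.6, 15.8 and 16.6 in CMs, a change of -0.83 (SE 0.14, edgeR adjusted p = 0.659). Myc was at 1.25, 1.16, 3.33 and 3.94 in fibroblasts, a change of 1.58 (SE 0.50, edgeR adjusted p = 0.910).

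Heat shock genes, which also respond to warming and handling, were, as a sum, lowest in RVVO 1 and highest in a sham library in all 5 lineages. The sum in RVVO 2 was 1.43, 1.15, 1.29, 1.07 and 1.06 times that in RVVO 1 in CMs, ECs, fibroblasts, macrophages and pericytes. None of 10 in CMs, ECs, fibroblasts and pericytes or of 8 in macrophages was called, with 5, 10, 5 and 8 of these 10 and 6 of these 8 at an unadjusted p of 0.05, against the shares of all genes given for the surgery test. Both RVVO libraries were below both sham libraries for 6 of 10 in CMs, 10 of 10 in ECs, 5 of 10 in fibroblasts, 7 of 8 in macrophages and 9 of 10 in pericytes (17.6%, 20.3%, 16.5%, 18.3% and 17% of all genes), with median log2 changes of -0.82, -1.15, -0.52, -0.85 and -0.84. Hspa1a, an inducible chaperone, was at 26.0, 82.2, 3.84 and 2.74 TMM-scaled CPM in ECs, a change of -4.02 (SE 0.62, edgeR adjusted p = 0.0812), and of -3.91 (edgeR adjusted p = 0.0452) in capillary ECs alone. Hspa1b was at 17.0, 70.4, 4.29 and 3.22 in ECs, a change of -3.52 (edgeR adjusted p = 0.138). Dnaja1, Hsp90aa1, Hspa1a, Hspa1b and Hsph1 (5 of 10) were highest in sham 2 in all 5 lineages, compared with 1.26% of all genes. The library highest for the chaperones was thus not the library highest for Fos, Junb and Egr1, and the part of handling in either was not tested.

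Of the 12 upstream factors, kinases and transcription factors that drive immediate early genes, 0 were called in any lineage, and 1 passed an unadjusted p of 0.05 (Mapk7 in pericytes, log2 -1.10, SE 0.48, edgeR adjusted p = 0.999). Of the 8 flow-responsive genes of ECs 0 were called, and their median change in ECs was -0.05. Vcam1, an adhesion molecule, was at 42.7, 46.0, 63.9 and 103 TMM-scaled CPM in ECs, a change of 0.91 (SE 0.23, edgeR adjusted p = 0.209). Vcam1 was higher in endocardial than in the other ECs (log2 3.51, SE 0.14), whose share differed between the groups as given above, and in capillary ECs alone the change was 0.52 (SE 0.26, edgeR adjusted p = 0.841). Klf7, another member of the Klf family, was at 546, 619, 473 and 454 in ECs, a change of -0.33 (SE 0.13, edgeR adjusted p = 0.451).

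Among 7438 genes with a mean of at least 20 CPM, those whose log2 (CPM + 1) was most like Fos over the 20 sums of 5 lineages in 4 libraries were Dscr3 (Pearson r = 0.914), C4b (0.903), Apoe (0.896), Gm20388 (0.884) and Rbm3 (0.882). For Egr1 they were Gm26733 (0.905), Mgp (0.890), Dcn (0.878), Lum (0.866) and Ecm1 (0.866), of which Mgp, Dcn and Lum were among the fibroblast markers. For Klf2 they included Ybx1 (0.973), Ly6e (0.964), Triobp (0.958) and Sh3glb1 (0.957). The sums of a library share its depth and free RNA, and these values are a description.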

How the data were processed

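Single-nucleus RNA counts of 2 sham and 2 RVVO libraries (10x 3′ v3, NovaSeq) were analysed. The authors deposited filtered matrices of raw UMI counts per gene and barcode, with no normalisation. The submitters' processing notes name Cell Ranger 3.0.1, STAR, Seurat 3.0.2 and GRCm38/mm10, while the file headers name Cell Ranger 5.0.0, and neither the labels nor the methods state how introns and strand were treated. Without strand, reads of overlapping or antisense genes cannot be told apart.

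Barcodes were kept if they had 200 genes or more and less than 10% of their UMIs from mitochondrial genes. Scrublet-type scores were computed in each library, and because the automatic threshold marked at most 0.0115% of barcodes, the highest scores were removed at 0.8% per 1000 barcodes. Nuclei were clustered (scanpy 1.11.5, leidenalg 0.10.2) without the 10 genes, the gene lists, sex-linked, mitochondrial and ribosomal protein genes, and clusters were named from markers. Median depth was 2311, 2262, 4705 and 3378 UMIs per barcode in sham 1, sham 2, RVVO 1 and RVVO 2, with 0.535% to 1.47% mitochondrial UMIs. For shares, nuclei were thinned to 1000 UMIs. This left out 38, 154, 5 and 0 ECs and 44, 112, 6 and 0 macrophages.

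UMI counts were summed per library and lineage. The main test was the quasi-likelihood test of edgeR 4.0.16 (R 4.3.3) with TMM factors, filterByExpr and Benjamini-Hochberg adjustment over all genes tested, called at 0.05. The library was the replicate, and p-values then measure only the spread between these libraries. Shares were compared by exact permutation of 2 against 2 libraries. The fits were tested on simulated data with 200 changed genes per lineage: of genes changed by a log2 of 1, 70.6% were recovered in CMs, 79.6% in ECs, 74.3% in fibroblasts, 32.3% in macrophages and 44.3% in pericytes. The changed genes were drawn from those above a minimum mean level. Fos in CMs, ECs and fibroblasts, Atf3 in CMs, ECs, fibroblasts and pericytes, and Egr1, Junb and Ier2 in CMs, lay below it. The simulated spread followed the trend over genes, not that of each gene. Recovery of genes this low was thus not measured. Alternatives were other size factors, filters, thinning, naming, a replicate block, DESeq2 1.42.0 and leaving out each library.

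The text names the 10 genes in every lineage, up to 3 genes per list and lineage with the largest change among those without overlap between groups (a selection of these is printed) and, for Fos, Egr1 and Klf2, the 5 genes with the most similar levels. The genes, lists and tests were chosen with earlier results of these data known. One of the genes most like Klf2 is not reported here.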

Additional observations from a re-analysis of the deposited data

Results flagged for a closer look

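Atf3 was higher in RVVO in one lineage and lower in others. Both RVVO libraries were above both sham libraries in macrophages (log2 0.64), and both were below them in ECs (log2 -1.11) and in pericytes (log2 -1.01). The term that tests whether the change with surgery differs between lineages gave an edgeR adjusted p of 0.387 and did not pass. In macrophages Atf3 rested on 7, 11, 10 and 26 UMIs and in pericytes on 11, 14, 4 and 5 UMIs in sham 1, sham 2, RVVO 1 and RVVO 2, and the value in macrophages turned to -0.22 when each nucleus was named on its own.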

How the results depend on the processing

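The count of the 10 genes called between RVVO and sham was 0 in CMs, macrophages and pericytes under all alternatives run. In ECs it ranged from 0 to 1 when a library was left out (Egr1 without RVVO 1, Atf3 without RVVO 2, with the spread from the sham libraries alone), and in fibroblasts it was 2 without the filter on low counts (Egr1 and Junb). The lineage by surgery term was called for 1 of the 10 genes without that filter (Atf3). Calls over all genes rose without it too, to 183 in fibroblasts (13 in the main setting) and 542 for the lineage by surgery term (64). The difference between lineages was called for 7 to 9 genes when a library was left out. With the replicate number as a block, 0 of the 10 genes were called between RVVO and sham or for the lineage by surgery term. For the difference between lineages 7 of them were called. Within lineages, libraries with the same number did not deviate together across genes (r of deviations -0.03 to 0.01). Their make-up did go with the number for some lineages. Adipocytes numbered 0, 100, 2 and 129 and epicardial nuclei 95, 404, 125 and 509 in sham 1, sham 2, RVVO 1 and RVVO 2. Whether libraries with the same number shared a batch or dissection was not stated or tested. Capillary ECs alone, an alternative chosen after seeing the data, gave 0 of the 10 genes called between RVVO and sham.

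Without thinning, the difference in share rose to 6.04 percentage points in CMs, 4.12 in ECs, 8.49 in macrophages and 9.65 in pericytes. In macrophages it was 2.92 at 2000 UMIs, and in pericytes -0.0310 with at least 2 UMIs. Subsets chosen after seeing the data gave 0.951 in ECs with 8 genes and -1.64 in pericytes with Klf2 or Klf4. Leaving out a library gave -1.95 to 2.15 in CMs, -7.32 to -0.234 in ECs, -4.42 to 8.42 in fibroblasts, -6.42 to 1.96 in macrophages and 0.572 to 7.17 in pericytes.

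Leaving out a library moved the log2 RVVO/sham change of Junb, Fos and Egr1 over -0.19 to 1.05, -0.58 to 1.60 and -0.60 to 1.55 in CMs and over -0.56 to 1.70, -0.51 to 1.5 and -0.39 to 1.74 in fibroblasts, and the negative values came without RVVO 2. With each nucleus named on its own, Atf3 in macrophages was -0.22, and Klf2 compared with the other lineages was -0.051 in macrophages and 0.13 in pericytes. Nr4a1 in CMs was -0.18 on total UMIs alone. The cause was not tested. Of the 26 called differences of a gene between lineages, 18 held with the block, 20 on thinned nuclei and 17 when nuclei were named singly, where 7 no longer passed, 2 turned and none of the 4 in pericytes passed. Over all genes, the calls ranged from 7 (also the main value) to 74 in CMs, where DESeq2 gave most, from 6 to 329 in ECs (main value 28), from 7 to 183 in fibroblasts (13) and in macrophages (9), from 0 to 103 in pericytes (7) and from 0 to 542 for the lineage by surgery term (64). Fosb had at most 11 UMIs per library and lineage, and Fos and Egr1 had 1 to 30 in macrophages and pericytes.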

Other observations

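Smaller lineages, which were not tested, held some of these genes too. Nr4a1 was at 7.70, 11.9, 14.2 and 67.0 CPM in smooth muscle cells of sham 1, sham 2, RVVO 1 and RVVO 2 (4, 5, 3 and 19 UMIs). Fos was found in smooth muscle cells of RVVO 2 alone, with 4 UMIs in 88 nuclei. In epicardial cells Atf3 was at 23.2, 47.6, 9.57 and 32.5 CPM (8, 57, 6 and 53 UMIs) and Fos at 14.5, 10.0, 6.38 and 17.8 CPM. Klf2 and Klf4 were at 84.0, 139, 94.1 and 152 CPM and at 125, 132, 94.1 and 140 CPM in epicardial cells, with RVVO 2 the highest for both.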
